A study of Mus musculus with 8 samples.

Results

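Genes of epithelial ion transport and guanylin signalling, 10 in number, were followed in the RNA of crypts from the intestines of 4 mice without Mex3a (KO) and 4 littermates (Ctrl). They were chosen by symbol for their role, with no threshold on a value but with earlier results of these data known. In the deposited table, 10 of the 55114 genes carried these symbols. Slc12a2, Cftr, Kcnq1 and Kcne3 serve fluid secretion, Slc9a3, Slc26a3 and Slc26a6 serve salt absorption, and Guca2a, Guca2b and Gucy2c form the guanylin pathway. All mice were C57BL/6 and 8 weeks old. The KO was constitutive, with the first exon and part of the next exon of Mex3a deleted in every tissue, so that cells other than the epithelium lack it too, and the file headers call the Ctrl mice WT. Crypts were released with EDTA, and the segment of intestine is not given in the sources used here. In such bulk RNA, fewer cells of a type and less RNA per cell cannot be told apart.

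Crypt cells secrete chloride and water, and cells of the villus absorb sodium and chloride. For secretion, the cotransporter NKCC1 (Slc12a2) loads chloride into the cell across the basolateral membrane, the channel CFTR lets it out into the lumen, and a basolateral potassium channel made of KCNQ1 and its subunit KCNE3 keeps the driving force. For absorption, the sodium/proton exchanger NHE3 (Slc9a3) works beside the chloride/bicarbonate exchangers DRA (Slc26a3) and PAT1 (Slc26a6). Guanylin (Guca2a) and uroguanylin (Guca2b) are peptides that bind the receptor guanylyl cyclase C (Gucy2c), whose product cGMP promotes secretion through CFTR and inhibits NHE3.

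Between 20324184 and 30654105 reads were counted on genes in each library. Mex3a, the deleted gene, had 13.3 ± 2.10 CPM (read counts scaled to library size, SD, n = 4) in Ctrl and 0.613 ± 0.417 in KO (SD, n = 4), with a log2 fold change of -4.43 (adjusted p = 0.0310, edgeR, and 0.126 in a fit blocked on replicate number). Stem cell markers of the crypt base were abundant, with a summed level of 5 genes of 4244 to 4977 CPM in Ctrl and 3151 to 3919 in KO. Enterocyte markers were present as well, with a summed level of 10 genes of 1961 to 4747 CPM in Ctrl and 3023 to 10654 in KO, and KO 3 and KO 4 were the highest mice. Ileal markers (Fabp6, Slc10a2, Slc51a and Slc51b) summed to 81.4 to 412 CPM in Ctrl and 435 to 897 in KO. The colon markers Hoxb13 and Hoxd10 had 0 counts in each library. Paneth cell markers varied widely, from 13718 to 40184 CPM in sum in Ctrl and from 6979 to 22034 in KO. Immune and stromal markers were low. Immune markers summed to 11.7 to 22.3 CPM in Ctrl and 16.8 to 33.4 in KO, and stromal markers to 9.61 to 19.3 and 13.6 to 25.8.

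Levels of the genes were set side by side in FPKM (the deposited values, which scale counts to gene length and library size). In Ctrl crypts Guca2a was the highest member, with 328 ± 21.3 FPKM (SD, n = 4), followed by Slc12a2 with 157 ± 12.4 and Guca2b with 101 ± 35.0. Kcne3 with 94.7 ± 11.5 was not separated from Guca2b, since their ranges over the mice overlapped. Gucy2c with 66.4 ± 4.45 and Kcnq1 with 61.6 ± 4.36 were not separated either, and Cftr lay below them with 39.5 ± 3.77. Of the absorption genes, Slc26a3 had 10.9 ± 2.34 FPKM and Slc9a3 had 5.43 ± 2.20, with overlapping ranges, so both lay below every secretion gene. In KO crypts the order was the same except that Guca2b, with 175 ± 127, had a higher mean than Slc12a2, with 132 ± 17.2, and the ranges of these genes overlapped.

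**Figure D1:**
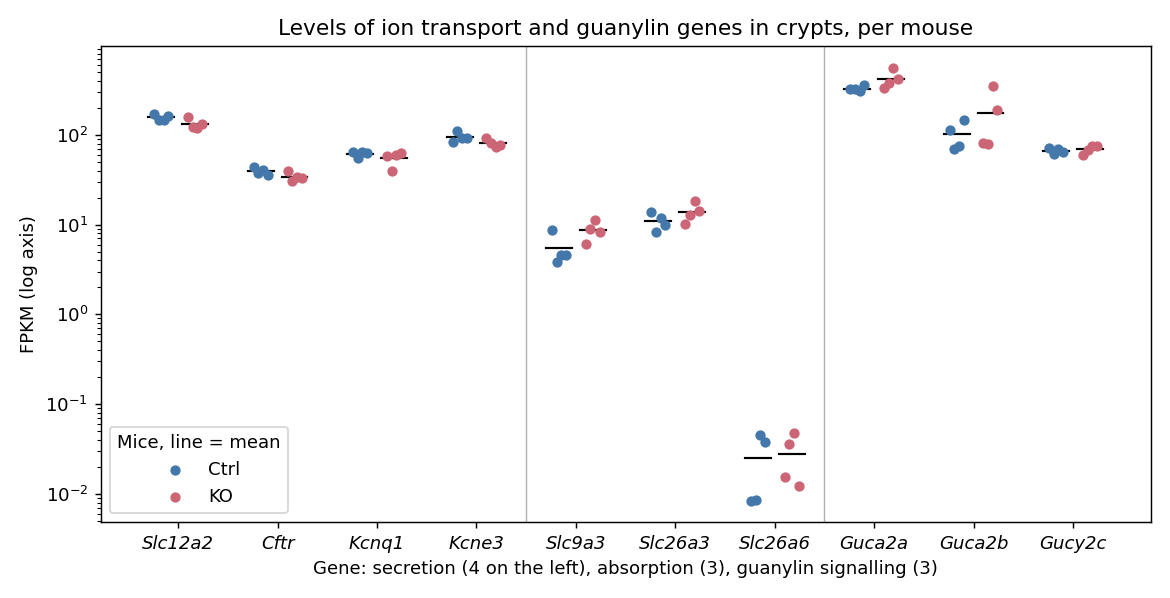
FPKM of the 10 genes in each mouse on a log axis, Ctrl in blue and KO in red, with the mean of 4 mice as a line. The secretion genes and the guanylin pathway lay between 30.5 and 561 FPKM, Slc26a3 and Slc9a3 between 3.82 and 18.5, and Slc26a6 below 0.05.

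Slc26a6 was hardly detected. It had 1 to 6 counts in each library, 27 in all, and did not pass the filter on low counts, so 9 of the 10 members were tested. Without that filter its log2 fold change was 0.12 ± 0.76 (SE), an error several times the value itself. GENCODE M21 gives its gene model (chromosome 9 of GRCm38, 108853283 to 108913049, plus strand) the tag of a fragmented locus, which 27 genes carry. Of the words of 31 bases in its annotated transcripts, 0.0357% occurred in transcripts of another gene. Whether reads of Slc26a6 were lost in alignment or counting was not tested.

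The comparison of KO with Ctrl asked whether the genes of crypt secretion and of villus absorption differed after loss of Mex3a. The 4 secretion genes had lower fitted levels in KO, with log2 fold changes from -0.25 to -0.17, and the 2 tested absorption genes and the 3 guanylin pathway genes had higher ones, from 0.06 to 0.79. That is 5 of 9 members fitted higher, where 46.1% of all genes were. At an unadjusted p under 0.05, Slc12a2 was lower and Slc9a3 and Guca2a were higher, which is 3 of 9 members against 8.38% of the 16109 genes tested. With p-values adjusted for the number of genes by the Benjamini-Hochberg method, 0 of the 9 passed in edgeR's quasi-likelihood test, against 0.00621% of all genes, and 0 passed with DESeq2 or with limma. No member separated the genotypes completely, which 2.17% of all genes did with every KO mouse higher and 1.87% with every KO mouse lower. The median log2 fold change of the 9 members was 0.06, beside -0.02 over all genes tested.

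**Figure D2:**
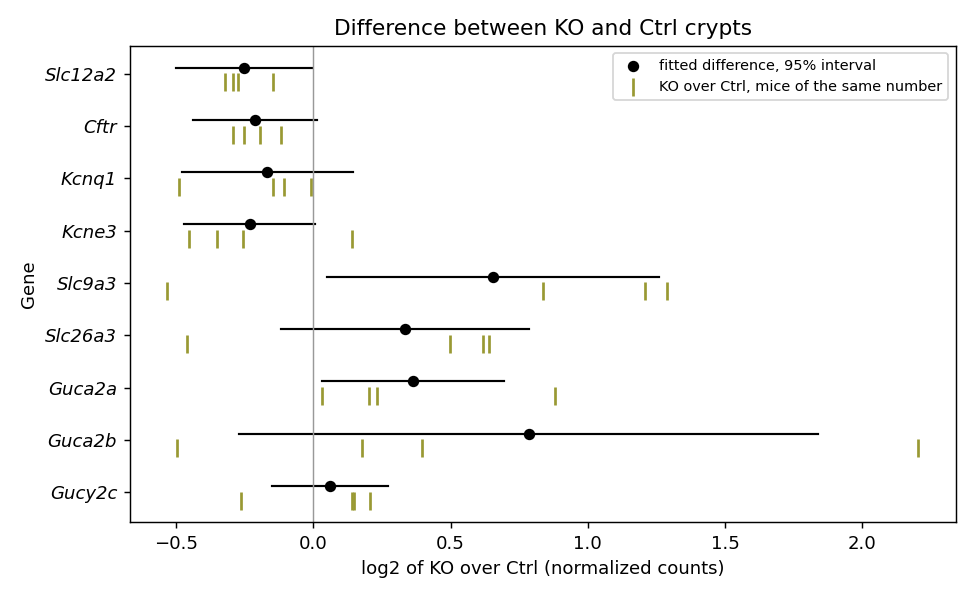
Fitted log2 fold change of KO over Ctrl for the 9 tested genes (points) with its 95% interval (lines), and below each the ratio of the KO and Ctrl mouse of the same number (ticks). The intervals of Slc12a2, Slc9a3 and Guca2a leave out 0, and the other 6 include it.

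Slc12a2 (ENSMUSG00000024597, chromosome 18 of GRCm38, 57878678 to 57946821, plus strand), the chloride loader of the secreting cell, had 1134, 956, 965 and 1072 CPM in Ctrl mice 1 to 4 and 1024, 791, 788 and 857 in KO mice 1 to 4. The KO mice 2, 3 and 4 lay below the lowest Ctrl mouse, and KO 1 lay within the Ctrl range. The means were 1032 ± 86.4 in Ctrl and 865 ± 111 in KO (SD, n = 4 each). Its log2 fold change was -0.25 ± 0.11 (SE; edgeR p = 0.0451, adjusted p = 0.586, two-sided exact permutation p = 0.0857). Leaving out 1 mouse at a time took the unadjusted p above 0.05 in 6 of 8 fits, up to 0.129 without KO 2.

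Cftr (ENSMUSG00000041301, chromosome 6, 18170687 to 18322768, plus strand), the chloride exit of the apical membrane, had 348, 292, 316 and 280 CPM in Ctrl mice 1 to 4 and 304, 238, 265 and 258 in KO mice 1 to 4. The pattern resembled that of Slc12a2, with KO 2, 3 and 4 below the lowest Ctrl mouse and KO 1 among the Ctrl mice. The fitted log2 difference was -0.21 ± 0.10 (SE; edgeR p = 0.0604, adjusted p = 0.616, two-sided exact permutation p = 0.0857). Within all 4 numbered pairs the KO mouse was the lower one, as it was for Slc12a2 and Kcnq1. In a fit blocked on replicate number the unadjusted p of Cftr was 0.0203 and the adjusted p 0.346, where 11.3% of all genes had an unadjusted p under 0.05. In that edgeR fit the unadjusted p was 0.0126 for Slc12a2 (adjusted p = 0.311) and 0.0913 for Kcnq1. Gm15592, which overlaps Cftr, had 21 to 46 counts and shared 1.32% of the 31-base words of Cftr.

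The potassium channel subunits gave smaller or less regular differences. Kcnq1 (chromosome 7, 143106362 to 143427042, plus strand), the pore, had 266, 228, 266 and 257 CPM in Ctrl mice 1 to 4 and 240, 162, 247 and 256 in KO mice 1 to 4. The mice overlapped apart from KO 2, the lowest of the 8, and the log2 fold change was -0.17 with a 95% interval from -0.48 to 0.14 (edgeR p = 0.253, two-sided exact permutation p = 0.314). Without KO 2 it was -0.04. The antisense gene Kcnq1ot1 lies within Kcnq1 and had 146 to 388 counts. Whether the counting used strand is not given in the sources used here, and 2.40% of the 31-base words of Kcnq1 occurred in the transcripts of Kcnq1ot1.

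Kcne3 (chromosome 7, 100176502 to 100184869, plus strand), the subunit that holds this channel open, had 150, 198, 166 and 166 CPM in Ctrl mice 1 to 4 and 165, 145, 130 and 138 in KO mice 1 to 4. The KO mice 2, 3 and 4 were below each Ctrl mouse, while KO 1 was not. KO differed by -0.23 ± 0.11 on the log2 scale (SE; edgeR p = 0.0540, adjusted p = 0.599, two-sided exact permutation p = 0.0571). Without Ctrl 2, the highest mouse, it was -0.15.

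KO 1 was the highest of the KO mice in Slc12a2, Cftr and Kcne3. Its crypt stem markers also summed to the highest KO value, 3919 CPM, of which Olfm4 made up 3366, a level that KO 2 shared with 3365. Lgr5 had 55.0 CPM in KO 1, below KO 3 with 65.4 and KO 4 with 83.1. Ascl2, Smoc2 and Axin2 were highest among the KO mice in KO 1, with 35.3, 210 and 252 CPM. For Smoc2, KO 4 was close with 208. The enterocyte markers of KO 1 summed to the lowest KO value, 3023 CPM. Of the 5 stem markers, 3 (Lgr5, Olfm4 and Smoc2) were lower in KO at an unadjusted p under 0.05, against 3.05% of all genes, and Olfm4 and Smoc2 were lower in every KO mouse than in every Ctrl mouse. The part of the cell mixture in the differences of the secretion genes was not tested.

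Slc9a3 (ENSMUSG00000036123, chromosome 13, 74121457 to 74169442, plus strand), the sodium/proton exchanger of the brush border, had 48.5, 21.2, 25.3 and 25.8 CPM in Ctrl mice 1 to 4 and 33.5, 48.9, 61.8 and 46.0 in KO mice 1 to 4. Ctrl 1 stood apart from the other 3 Ctrl mice, which lay below every KO mouse. The means were 30.2 ± 12.4 in Ctrl and 47.5 ± 11.6 in KO (SD, n = 4 each), a ratio of 1.58. Its log2 fold change was 0.66 ± 0.27 (SE; edgeR p = 0.0365, adjusted p = 0.567, two-sided exact permutation p = 0.0857). Without Ctrl 1 this value was 0.98 (adjusted p = 0.672, edgeR), and without KO 3, the highest mouse, it was 0.50 (adjusted p = 0.966, edgeR). The unadjusted p was above 0.05 in 6 of the 8 fits without 1 mouse.

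Slc26a3 (ENSMUSG00000001225, chromosome 12, 31390871 to 31473917, plus strand), the chloride/bicarbonate exchanger whose loss causes congenital chloride diarrhoea in people, had 88.2, 52.9, 75.9 and 64.1 CPM in Ctrl mice 1 to 4 and 64.1, 81.1, 118 and 90.6 in KO mice 1 to 4. As in Slc9a3, Ctrl 1 was the highest Ctrl mouse and KO 1 the lowest KO mouse. The other KO mice each exceeded Ctrl 2, 3 and 4. The fitted log2 difference was 0.33 with a 95% interval from -0.12 to 0.79, which includes 0 (edgeR p = 0.131, adjusted p = 0.684, two-sided exact permutation p = 0.229). Without KO 3 the fitted difference was 0.16.

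Set against the secretion genes within each mouse, both absorption genes showed the same arrangement. The FPKM of Slc26a3 was 0.221 to 0.309 of that of Cftr in Ctrl mice, and 0.257, 0.416, 0.544 and 0.428 of it in KO mice 1 to 4. The FPKM of Slc9a3 was 0.0262 to 0.0506 of that of Slc12a2 in Ctrl, and 0.0388, 0.0732, 0.0928 and 0.0636 of it in KO mice 1 to 4. In both ratios KO 2, 3 and 4 lay above every Ctrl mouse and KO 1 lay within the Ctrl range. These ratios repeat the values of the single genes and were not tested.

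The ligand genes lie beside each other on chromosome 4 of GRCm38, Guca2a from 119637704 to 119639471 on the plus strand and Guca2b from 119656607 to 119658954 on the minus strand, with 17135 bases between them. RefSeq (GRCm38.p6) gives a window of 250 bases before and 50 after a start site for 7 of the 10 members, all but Slc12a2, Kcnq1 and Gucy2c. Each window was searched on both strands for short motifs. The letters TATAA, a core of the TATA box, were found in Guca2b and Slc26a3 and in 28% of all 27025 genes with a window. The similar letters TTTAAA were found in Guca2a and in 14.9% of genes. The letters GTTAAT, part of the HNF1 motif, occurred in Guca2b and Slc26a3 and in 8.24% of genes. The letters CACCC, common in binding sites of KLF factors, occurred in 6 of the 7 members and in 59.8% of genes. The stretches of 30 bases around the TATA-like letters, in capitals, are shown 5′ to 3′ on the strand of the gene for the ligand genes and for the absorption gene that holds the same letters.
Guca2a, chr4:119637672-119637701, plus strand: aaccccaacctcTTTAAAagccccactgtt
Guca2b, chr4:119658928-119658957, minus strand: tggaccctggccTATAAggggctgctggcc
Slc26a3, chr12:31438189-31438218, plus strand: tataaagacatcTATAAtacatatggatgc
The capitals begin 48 bases before the RefSeq start of Guca2a, at that of Guca2b and 18 bases before that of Slc26a3, which lies inside the longer gene model of the deposited table. The RefSeq starts of Guca2a and Guca2b also lie inside their models in that table, and so do the capitals of Guca2b. The Slc26a3 stretch opens with the same letters a second time, in lower case, 30 bases before the start. A match is a description of the letters and was not tied to the differences between genotypes.

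Guca2a (ENSMUSG00000023247), guanylin, had 195, 195, 182 and 214 CPM in Ctrl mice 1 to 4 and 200, 224, 335 and 251 in KO mice 1 to 4. The Ctrl mice were close to each other, with a coefficient of variation of 6.69%, and KO 2, 3 and 4 lay above them. The means were 196 ± 13.1 in Ctrl and 252 ± 58.9 in KO (SD, n = 4 each), a ratio of 1.29. Its log2 fold change was 0.36 ± 0.15 (SE; edgeR p = 0.0354, adjusted p = 0.565, two-sided exact permutation p = 0.0571). Without KO 3 this value was 0.20 (adjusted p = 0.961, edgeR), and the unadjusted p was above 0.05 in 5 of the 8 fits without 1 mouse. With limma on log2(FPKM + 1) the unadjusted p was 0.0577. Each KO mouse was above the Ctrl mouse of the same number, by 0.03, 0.20, 0.88 and 0.23 on the log2 scale for numbers 1 to 4.

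Guca2b (ENSMUSG00000032978), uroguanylin, varied most among the 9 tested members in KO crypts. It had 100.4, 61.3, 66.1 and 127 CPM in Ctrl mice 1 to 4 and 71.1, 69.3, 305 and 167 in KO mice 1 to 4. KO 3 and KO 4 were the highest of the 8 mice, and KO 1 and KO 2 lay among the Ctrl mice. The coefficient of variation was 34.9% in Ctrl and 72.4% in KO. The fitted log2 difference was 0.79 with a 95% interval from -0.27 to 1.84 (edgeR p = 0.127, adjusted p = 0.680, two-sided exact permutation p = 0.371). It was 0.21 without KO 3, so that mouse decided the size of the difference.

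The summed enterocyte markers had 2434, 1961, 2779 and 4747 CPM in Ctrl mice 1 to 4 and 3023, 3696, 10654 and 6715 in KO mice 1 to 4. The same mice, KO 3, KO 4 and Ctrl 4, were highest in this sum and in Guca2b, in that order. At an unadjusted p under 0.05, 3 of the 10 markers were higher in KO (Apoa1, Anpep and Vil1) and 7 did not pass, against 5.33% of all genes, with a median log2 fold change of 0.74. Goblet markers summed to 3840 to 5536 CPM in Ctrl and 5025 to 7271 in KO, and enteroendocrine markers to 198 to 359 and 259 to 288. The part of these cells in the levels of the guanylin genes was not tested. The ileal markers were higher in KO at that threshold in 4 of 4 genes, against the same 5.33%. Of 5 markers of the proximal intestine, 1 was lower (Onecut2, log2 fold change -0.66, in every KO mouse below every Ctrl mouse), 0 were higher and 4 did not pass. Only 1 of the 5 was fitted higher, Lct with a log2 fold change of 1.34 ± 0.82 (SE). The median log2 fold change of the list was -0.26. The list summed to 303 to 480 CPM in Ctrl and 296 to 738 in KO. The part of these markers, or of the segment sampled, was not tested either.

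**Figure D3:**
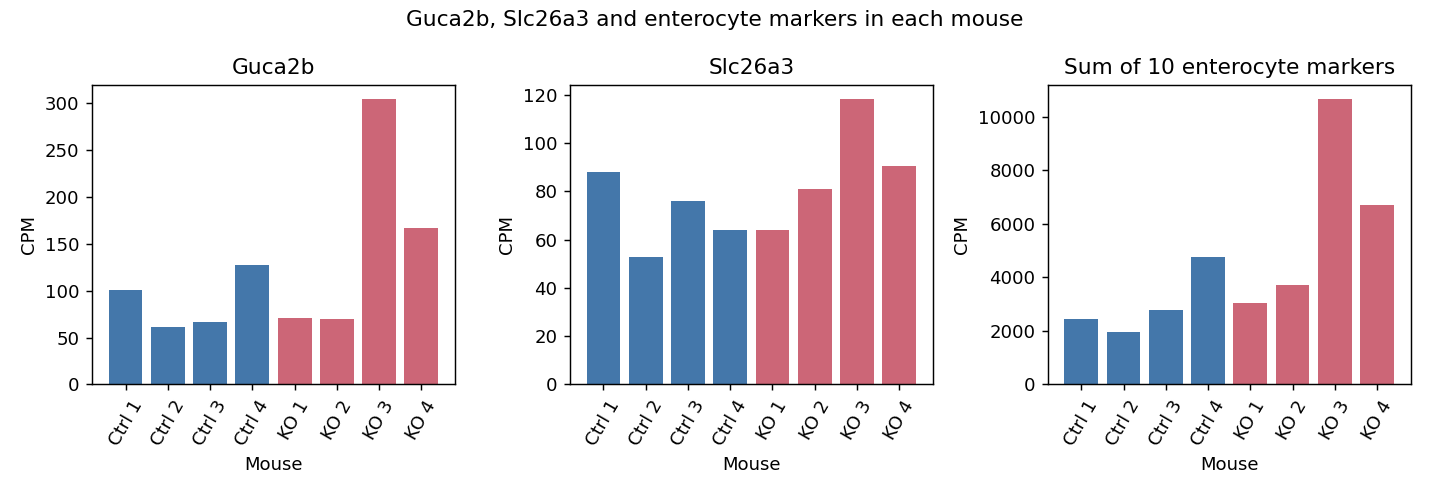
CPM of Guca2b (left), Slc26a3 (middle) and the sum of 10 enterocyte markers (right) in each mouse, Ctrl in blue and KO in red. KO 3 had the highest bar in each panel, with 305, 118 and 10654 CPM.

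Gucy2c (ENSMUSG00000042638, chromosome 6, 136697284 to 136781765, minus strand), the receptor, had 286, 243, 273 and 258 CPM in Ctrl mice 1 to 4 and 238, 270, 301 and 298 in KO mice 1 to 4. The mice of both genotypes were intermixed. The fitted log2 difference was 0.06 with a 95% interval from -0.15 to 0.27 (edgeR p = 0.528, two-sided exact permutation p = 0.514). Per length, guanylin RNA was 4.43 to 5.52 times that of the receptor in Ctrl mice and 5.52 to 7.42 times in KO mice, where the lowest KO ratio (5.524) lay only just above the highest Ctrl ratio (5.517). Uroguanylin RNA was 1.10 to 2.24 times that of the receptor in Ctrl and 1.17 to 4.61 times in KO.

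Other genes of these functions were taken from 3 lists. Of 15 tested partners of secretion, at an unadjusted p under 0.05, 1 was higher in KO, 0 were lower and 14 did not pass, where 5.33% of all genes were higher and 3.05% lower, so the share was near that of all genes. The median log2 fold change was -0.04. The gene that passed was Kcnk5, a potassium channel, with 51.2 ± 8.59 CPM in Ctrl and 74.3 ± 18.4 in KO (SD, n = 4 each) and a log2 fold change of 0.54 (edgeR p = 0.0137, adjusted p = 0.518, exact permutation p = 0.0571). In the blocked fit, 2 partners of secretion were higher and 1 was lower, where 11.3% of all genes passed in either direction.

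Of 13 tested partners of absorption, at an unadjusted p under 0.05, 4 were higher in KO, 0 were lower and 9 did not pass, against 5.33% of all genes higher and 3.05% lower. The median log2 fold change was 0.25. Pdzk1, a scaffold protein of the brush border, had 3.60, 5.65, 5.86 and 16.5 CPM in Ctrl mice 1 to 4 and 9.87, 14.5, 60.9 and 30.0 in KO mice 1 to 4. Its highest mice were KO 3 and KO 4, as for Guca2b, and its log2 fold change was 1.86 ± 0.63 (SE; edgeR p = 0.0155, adjusted p = 0.518, exact permutation p = 0.0857). Slc9a2, which encodes the exchanger NHE2, had 57.3 ± 9.42 CPM in Ctrl and 71.2 ± 4.71 in KO (SD, n = 4 each), with a log2 fold change of 0.31 (edgeR p = 0.0201, adjusted p = 0.533, exact permutation p = 0.0857). Slc9a3r1, which encodes the NHE3 regulator NHERF1, and Chp2, a cofactor of sodium/proton exchangers, were the other two, named after their values were seen, with log2 fold changes of 0.75 and 0.51. In the blocked fit 7 partners of absorption were higher and 0 were lower, where 7.14% of all genes were higher. Without Ctrl 2, KO 3 or KO 4 in turn, 1 passed in place of 4. Of the markers, 3 of 10 for enterocytes and 4 of 4 for ileum were higher in KO at the same threshold, and their part in the differences of these partners was not tested.

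Of 13 tested genes of cyclic nucleotide signalling and secretagogue receptors, at an unadjusted p under 0.05, 2 were higher in KO, 0 were lower and 11 did not pass, against the same shares of all genes, and the median log2 fold change was 0.07. In the blocked fit 3 were higher and 0 were lower, where 7.14% of all genes were higher. Without KO 3 or KO 4 in turn 1 passed in place of 2. Pdzd3, a PDZ protein that binds guanylyl cyclase C, had 28.7 ± 3.16 CPM in Ctrl and 41.6 ± 9.84 in KO (SD, n = 4 each), with a log2 fold change of 0.54 (edgeR p = 0.00879, adjusted p = 0.518, exact permutation p = 0.0571). P2ry2, a receptor for nucleotides, had 5.66 ± 2.44 and 10.0 ± 2.96 CPM, with a log2 fold change of 0.82 (edgeR p = 0.0280, adjusted p = 0.555, exact permutation p = 0.0857). The cGMP kinase gene Prkg2, which acts downstream of the receptor, had a log2 fold change of 0.11 ± 0.18 (SE), and was named after its value was seen. In the 3 lists, 0 genes passed the adjusted threshold in edgeR's test.

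**Figure D4:**
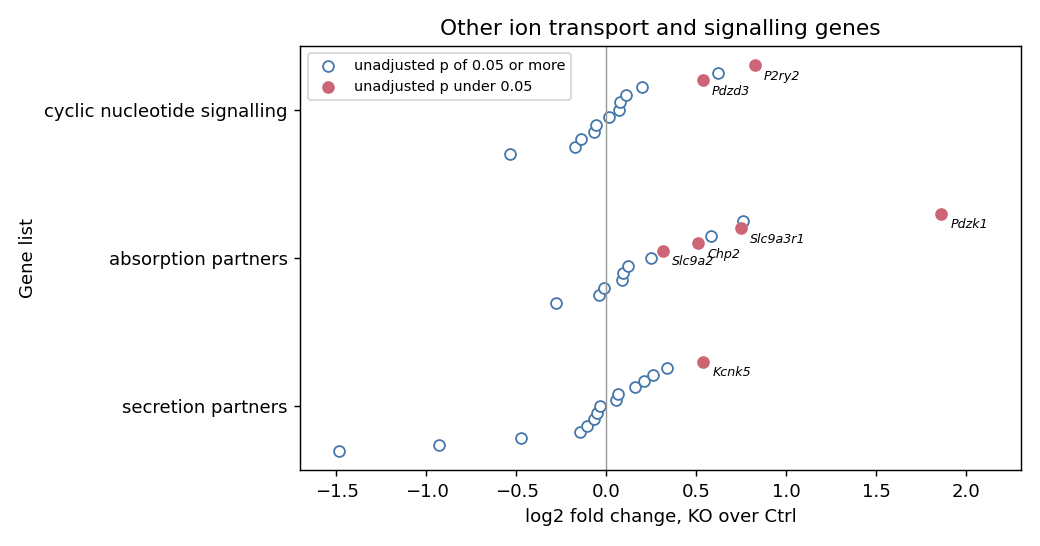
Log2 fold change of KO over Ctrl for each tested gene of the 3 lists of other transport and signalling genes, filled where the unadjusted edgeR p was under 0.05. The 7 filled points all lie to the right of 0, and 4 of them are partners of absorption.

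The genes with the most similar course over the 8 mice were sought by the root mean square difference of log2 CPM after centring each gene on its mean. For Cftr these were Phlpp1, Trp53bp1 and Pdcd11, at 0.038, 0.039 and 0.055. For Guca2a they were Shpk, Scp2 and Ckmt1, at 0.064 to 0.066, and for Slc26a3 they were Cdnf, Hnf4g and Acy1, at 0.11 to 0.12. The values of these genes over the mice show likeness in 8 samples only, and Cftr itself varied by only 0.16 on this scale.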

How the data were processed

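RNA of intestinal crypts from 4 Ctrl and 4 KO mice was analysed, grouped by their labels. The deposited values are read counts that were not normalized, and FPKM, in which the authors divided counts by gene length and library size. Per the labels, the submitters' processing notes name CASAVA, HISAT2 2.0.5 and featureCounts 1.5.0-p3. The deposited table also holds the authors' own DESeq2 comparison (a signal of group means of normalized counts, log2 fold changes, p-value and adjusted p), which was not used. The deposited genes' coordinates match GENCODE M21 on GRCm38 for all 10 members.

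KO and Ctrl were compared on the counts with edgeR 4.0.16 in R 4.3.3 (filterByExpr with a minimum count of 10, TMM, quasi-likelihood test, genotype only, 8 mice), and 16109 genes were tested with Benjamini-Hochberg adjustment and a threshold of 0.05. CPM used TMM library sizes. Single values were also compared by an exact permutation test over 70 assignments of mean log2 CPM (smallest p 0.0286). The tests were checked on simulated data.

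Deviations from the genotype means correlated between same-numbered mice at 0.129 to 0.501 in 4 of 4 pairs over all genes (0.0873 to 0.481 on autosomes), so the numbers were taken to pair the mice, although the labels tie no number to a litter. The edgeR and permutation p-values printed ignore this pairing except where a blocked fit is named. Libraries of a genotype differed beyond sampling noise (chi-square divided by its degrees of freedom 23.4 to 86.3). The members and lists were chosen with earlier results of these data known. The genes named are the 10 members, Mex3a, the 2 genes of each list with the smallest p and the 3 genes nearest to each of Cftr, Slc26a3 and Guca2a. One gene that this rule names is not reported here. Named besides are markers given beside a result and Slc9a3r1, Chp2 and Prkg2, after their values were seen. Tried as alternatives were DESeq2 1.42.0, factors by RLE or upper quartile, all genes unfiltered, limma 3.58.1 on log2(FPKM + 1) and log2(FPKM + 0.1), a block for the replicate number and leaving out each mouse. Figures were drawn with matplotlib 3.10.9 in Python 3.11.15.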

Additional observations from a re-analysis of the deposited data

Results flagged for a closer look

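In 2 groups a mouse stood apart from the others of its genotype. In Slc9a3 in Ctrl crypts, Ctrl 1 had 48.5 CPM against 21.2 to 25.8 in the remaining Ctrl mice. In Kcnq1 in KO crypts, KO 2 had 162 CPM against 240 to 256 in the remaining KO mice. Dixon's statistic, the distance to the nearest mouse as a share of the whole range, was 0.8311 for Slc9a3 and 0.8295 for Kcnq1, both barely above its 95% critical value. Each member was examined in each genotype, 20 groups in all, of which 2 passed, and chance gives about 1 in 20.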

How the results depend on the processing

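Over the 15 alternatives the 9 tested members kept their direction in 135 of 135 values, and 0 of these passed the adjusted threshold. The 3 members with an unadjusted p under 0.05 became 5 with upper-quartile factors (Cftr and Kcne3 added) and 0 to 6 when 1 mouse was left out, with 0 without Ctrl 3, KO 3 or KO 4, 1 without Ctrl 2 and 6 without KO 1. Blocked on replicate number, 4 members passed it, with Cftr added. The block also gave 3 partners of secretion and 7 of absorption, and it changed no call on the adjusted threshold except that of Mex3a, since 0 genes passed it with the pairing in place of 1. Without the filter 2 partners of secretion passed. Leaving out 1 mouse gave 1 to 2 partners of secretion, 1 to 5 of absorption (1 without Ctrl 2, KO 3 or KO 4) and 1 to 3 signalling genes (1 without KO 3 or KO 4). Over all genes, the number past the adjusted threshold was 93 with DESeq2, 2 with no filter, 2 with limma on log2(FPKM + 1), 2 with limma on log2(FPKM + 0.1), and 0 to 4 without 1 mouse. Past the unadjusted threshold it was 846 (without KO 3) to 2133 (without KO 1), against 1350. The causes were not tested. The log2 fold change of Guca2b ranged from 0.21 without KO 3 to 1.02 without KO 2.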
